A study of Mus musculus with 15 samples.

Results

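The genes described here are Dppa2, Dppa3, Dppa4 and Dppa5a, 4 mouse genes named "developmental pluripotency associated", taken by their symbols from a table of 18762 genes; all 4 were found. They were selected on their measured levels in these libraries: when ES cells were put into day 6 EB culture, Dppa3 moved one way and the other 3 the other way. The changes between cultures are therefore given as a description with no test. The tests are on the Mettl5 genotype, and those values were also known when the genes were picked.

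DPPA2 and DPPA4 are small nuclear proteins with a SAP domain that pair with each other and bind chromatin in pluripotent cells. In mouse ES cells they activate Dux and, through it, the Zscan4 family of the 2-cell-like state, and they keep a set of developmental and germline promoters free of DNA methylation. DPPA3, also called STELLA or PGC7, is a maternal factor and a marker of primordial germ cells that binds UHRF1 and limits maintenance DNA methylation. DPPA5A is a KH-domain RNA-binding protein of ES cells and germ cells, related to the oocyte proteins OOEP and KHDC3. Dppa1, a further gene with this name, was listed at 0 or 0.02 FPKM in every library and is not among the 4.

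The libraries were poly(A) RNA sequencing of mouse ES cells of strain C57BL/6N, either Mettl5-/- (KO; METTL5 is a methyltransferase of 18S ribosomal RNA) or wild type (WT). There were 3 KO and 2 WT libraries of each of 3 cultures, 15 in all. The cultures were embryoid bodies (EBs), which are cells kept for 6 days without LIF in dishes coated to prevent attachment, cells kept for 6 days in N2B27 medium for neural differentiation, and the undifferentiated ES cells at day 0. KO libraries 1 to 3 carry the same names in each culture. WT library 1 is titled Ctr and WT library 2 is titled WT in each culture; both are labelled wild type, and what sets them apart is not stated. A name shared between cultures is called a line here; whether a KO line is 1 clone is not stated, nor that the libraries came from separate cultures, so that a p-value here reflects library-to-library spread, which may be technical.

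Values are FPKM, fragments scaled by transcript length and by library total, and can be set side by side between genes. Depth estimated from the steps between low FPKM values was 16400000 to 18300000 fragments per library, and log2(FPKM + 1) correlated between libraries of a group with r of 0.9918 to 0.9977 across genes. Mettl5 had 3.29 to 10.65 FPKM in the 9 KO libraries and 8.37 to 20.85 FPKM in the 6 WT libraries, with KO below WT within each culture. Pou5f1, an ES cell marker, averaged 976 FPKM in KO and 990.3 FPKM in WT ES cells, while Sox1, a neural marker, averaged 93.9 FPKM in KO and 124 FPKM in WT N2B27 cultures. These are bulk RNA values, in which fewer cells of a type and less RNA per cell cannot be told apart.

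Dppa2 was lower in both day 6 cultures than in ES cells. In EBs it had 24.35, 14.99 and 26.14 FPKM in KO and 12.29 and 13.37 FPKM in WT libraries, and in N2B27 it had 0.64, 0.81 and 0.88 FPKM in KO and 0.75 and 0.87 FPKM in WT libraries. In ES cells it had 86.91, 75.16 and 78.14 FPKM in KO and 88.28 and 86 FPKM in WT libraries. No day 6 library reached any ES cell library, and N2B27 libraries lay far below EB libraries. The mean in EBs was 27.3% of the ES cell mean in KO and 14.7% in WT, and in N2B27 it was 0.97% in KO and 0.93% in WT. The fewest fragments behind a Dppa2 value were an estimated 21.7, in a KO N2B27 library.

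Dppa4 lies on the same strand of the same chromosome as Dppa2 and ends 15982 bases before it (GRCm38, chr16:48283735-48294292 and chr16:48310274-48319513, plus strand). Its levels in ES cells were close to those of Dppa2, but it was lowered less at day 6. In EBs it had 33.68, 25.88 and 38.57 FPKM in KO and 22.4 and 25.76 FPKM in WT libraries, and in N2B27 it had 10.32, 11.58 and 10.76 FPKM in KO and 7.05 and 11.2 FPKM in WT libraries. In ES cells it had 57.23, 60.88 and 64.19 FPKM in KO and 62.34 and 64.55 FPKM in WT libraries. The 3 cultures did not overlap within either genotype. N2B27 cells kept 17.9% of the ES cell mean in KO and 14.4% in WT, against the values under 1% for Dppa2.

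Dppa5a (chr9:78367052-78368199, minus strand) was among the most abundant transcripts of ES cells, ranked 68 to 75 of all genes by FPKM in KO and 81 to 86 in WT libraries. In EBs it had 672.98, 627 and 724.7 FPKM in KO and 489.76 and 447.24 FPKM in WT libraries, against 1199.28, 1191.86 and 1049.57 FPKM in KO and 956.91 and 1023.97 FPKM in WT ES cells. EBs thus held 58.8% of the ES cell mean in KO and 47.3% in WT. In N2B27 it had 3.04, 6.42 and 5.49 FPKM in KO and 10.58 and 5.05 FPKM in WT libraries, which is 0.435% of the ES cell mean in KO and 0.789% in WT. Of the 3 genes that were lower in EBs it kept the largest share of its ES cell mean there, yet in N2B27 its share was under 1%, as that of Dppa2 was.

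Dppa3 (chr6:122626424-122630271, plus strand) went the other way in EBs only. It had 11.88, 8.91 and 12.3 FPKM in KO and 26.44 and 18.56 FPKM in WT EBs, against 0.56, 1.06 and 0.8 FPKM in KO and 1.86 and 0.73 FPKM in WT ES cells. Every EB library lay above every ES cell library, and the mean was 13.7 times the ES cell mean in KO and 17.4 times in WT. In N2B27 it was listed at 0, 0.07 and 0 FPKM in KO and at 0.07 and 0 FPKM in WT libraries, and 0.07 FPKM is what 1 fragment is worth. Both genotypes were there under the floor of 3 fragments, so no genotype fold is given for that culture. ES cell values were low too, at an estimated 8.1 to 15.4 fragments per KO library and 11.1 to 26.5 per WT library, while EB values rested on 124.7 to 175.2 fragments in KO and 253.6 to 367.8 in WT.

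**Figure D1:**
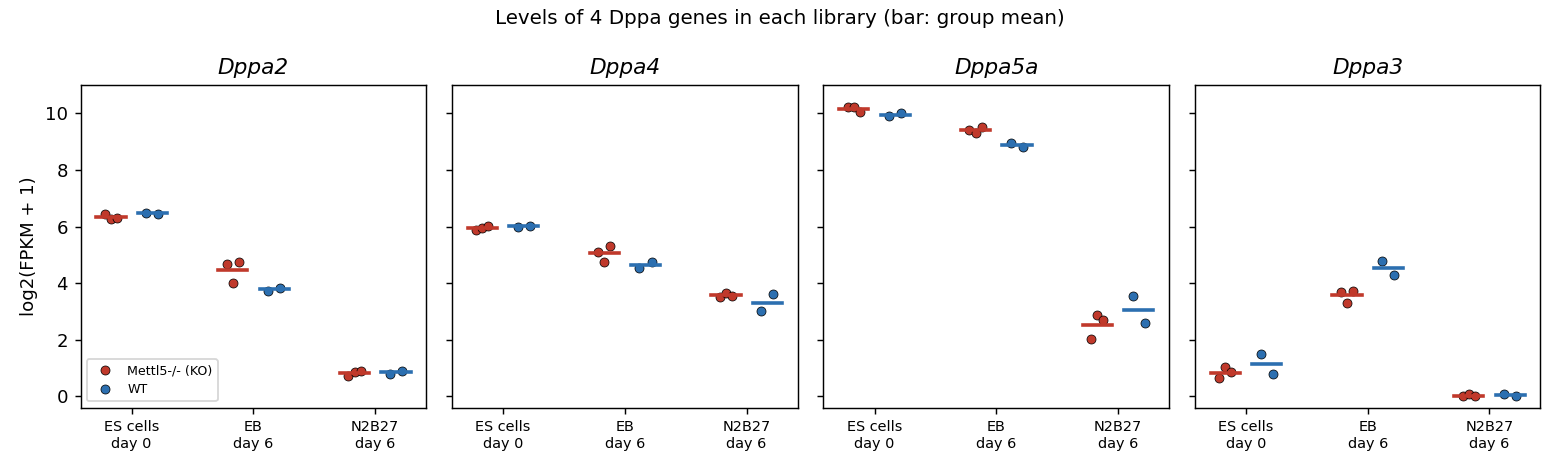
Levels of Dppa2, Dppa4, Dppa5a and Dppa3 as log2(FPKM + 1) on the y axis, by culture on the x axis, with KO libraries (red) left of WT libraries (blue). Each point is 1 library and each bar a group mean; 3 genes step down at day 6, while Dppa3 is high in EBs and near 0 in N2B27.

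On the log2(FPKM + 1) scale, EBs minus ES cells gave -1.86 in KO and -2.67 in WT for Dppa2, -0.89 in KO and -1.36 in WT for Dppa4, -0.76 in KO and -1.08 in WT for Dppa5a, and 2.73 in KO and 3.38 in WT for Dppa3. For each of the 4 genes the KO value was the nearer to 0, but the genotype difference in this change, tested below, passed for none of them. Among all 12929 genes tested, 36.2% were called higher and 28.5% lower in KO EBs against KO ES cells, and 35.8% higher and 23.6% lower in WT EBs against WT ES cells. N2B27 minus ES cells gave -5.51 in KO and -5.61 in WT for Dppa2, -2.38 in KO and -2.70 in WT for Dppa4, and -7.63 in KO and -6.89 in WT for Dppa5a, where 43.5% of genes were called higher and 33.2% lower in KO and 41.5% higher and 29.2% lower in WT.

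The order of the 4 levels differed between cultures. In ES cells of both genotypes it was Dppa5a, Dppa2, Dppa4 and Dppa3, with no overlap between neighbours. In KO EBs Dppa4 (mean 32.7 FPKM) and Dppa2 (21.8 FPKM) overlapped and Dppa3 was lowest, while in WT EBs Dppa4 (24.1 FPKM) and Dppa3 (22.5 FPKM) overlapped and Dppa2 was lowest. In N2B27 Dppa4 had the highest mean in both genotypes, with a range that overlapped that of Dppa5a in WT and not in KO.

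Ratios of plain FPKM within a library do not depend on how libraries are scaled to each other. Dppa4 over Dppa2, both in FPKM, was 1.38 to 1.73 in KO and 1.82 to 1.93 in WT EBs, and 12.23 to 16.12 in KO and 9.40 to 12.87 in WT N2B27 cultures. In ES cells it was 0.66 to 0.82 in KO and 0.71 to 0.75 in WT. Dppa4 thus exceeded Dppa2 in every day 6 library and was below it in every ES cell library. With 1 FPKM added to each level, the log2 ratio of Dppa3 to Dppa2 in EBs averaged -0.90 ± 0.18 (SD, n = 3) in KO and 0.75 ± 0.43 (SD, n = 2) in WT. Dppa2 exceeded Dppa3 in 3 of 3 KO EB libraries, and Dppa3 exceeded Dppa2 in 2 of 2 WT EB libraries. In ES cells the same ratio was -5.49 ± 0.31 in KO and -5.31 ± 0.49 in WT. It depends there on the amount added, with -6.50 in KO and -6.10 in WT for 0.1 FPKM, while in EBs 0.1 FPKM gave -0.95 in KO and 0.78 in WT.

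**Figure D2:**
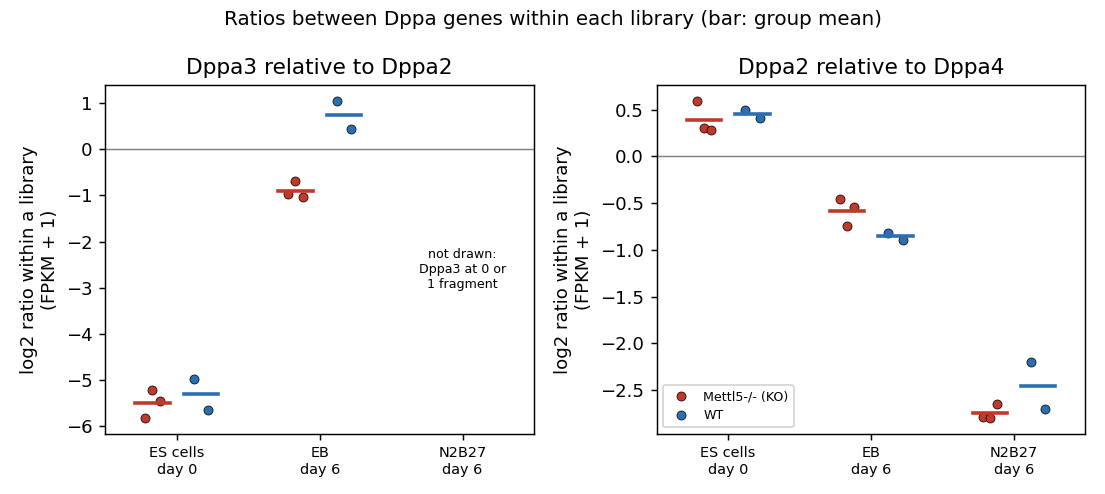
Log2 ratios within each library of Dppa3 to Dppa2 (left) and of Dppa2 to Dppa4 (right), by culture, with KO (red) left of WT (blue); points are libraries, bars group means, and each level had 1 FPKM added. In EBs the left-hand ratio is below 0 in the KO libraries and above 0 in the WT libraries; N2B27 is not drawn there because Dppa3 was at 0 or 1 fragment.

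The genotype difference was tested within each culture, first in EBs. KO EBs were compared with WT EBs in 1 limma fit over all libraries, with p-values adjusted by Benjamini-Hochberg over 12929 genes, and 293 genes (2.27%) passed at 0.05, 84 higher (0.650%) and 209 lower (1.62%). With median-ratio scaling 41.7% of calls were higher and with scaling to a fixed total 18.7%, against 28.7% as reported. Of the 4 genes 2 passed. Dppa2 was higher in KO EBs by 0.69 ± 0.17 on the log2 scale (limma, adjusted p = 0.0489), with means of 21.8 ± 5.99 FPKM in KO (SD, n = 3) and 12.8 ± 0.764 FPKM in WT (SD, n = 2). Dppa3 was lower in KO EBs by a log2 difference of -0.96 ± 0.20 (limma, adjusted p = 0.0281), with means of 11 ± 1.85 FPKM in KO and 22.5 ± 5.57 FPKM in WT.

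Dppa4 had a log2 difference of 0.41 ± 0.16 (limma, adjusted p = 0.25) and Dppa5a one of 0.52 ± 0.24 (limma, adjusted p = 0.331), and neither passed. All KO EB libraries lay above all WT EB libraries for Dppa2, Dppa4 and Dppa5a, as for 8.34% of the genes tested. For Dppa3 all KO EB libraries lay below all WT EB libraries, as for 18.1% of the genes tested. By group means, the 3 genes that were high in ES cells were nearer to their ES cell level in KO EBs. Dppa3, which was low in ES cells, was also nearer to its own. These values were known when the genes were picked. The test of whether the change from ES cells differed between genotypes, given below, passed for none of them.

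Both calls were close to the threshold. That of Dppa2 was lost without KO library 1 (adjusted p = 0.0943), KO library 3 (0.194), WT library 1 (0.184) or WT library 2 (0.213), and had an adjusted p of 0.000392 without KO library 2, the lowest of the KO EB libraries. That of Dppa3 was lost without KO library 2 (adjusted p = 0.0564), KO library 3 (0.0615), WT library 1 (0.174) or WT library 2 (0.055). The direction was the same in each case.

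**Figure D3:**
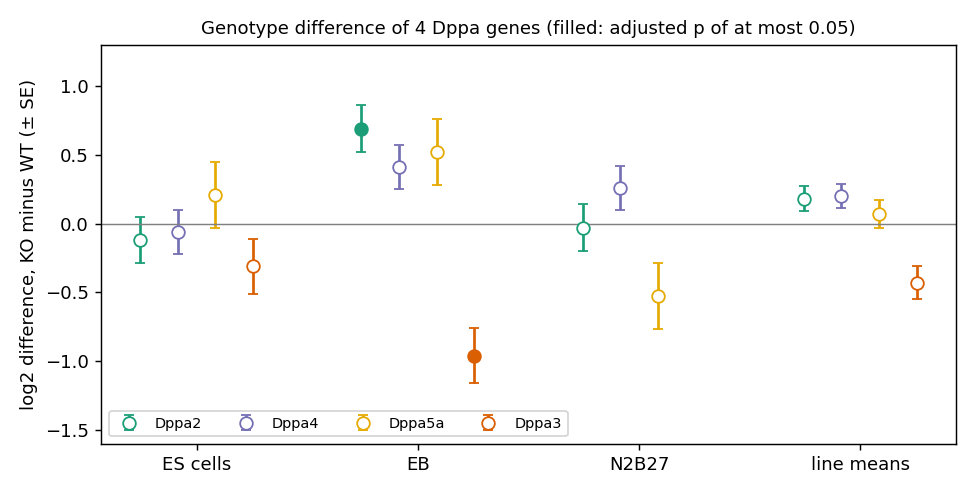
Log2 difference, KO minus WT, on the y axis for the 4 genes in ES cells, EBs and N2B27 and for the means of each line over the 3 cultures; bars are ± SE from limma and filled points have an adjusted p of at most 0.05. The filled points are Dppa2 at 0.69 and Dppa3 at -0.96, both in EBs; Dppa3 in N2B27 is not drawn.

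In ES cells no gene of the table passed between KO and WT (0 of 12929 with limma; 447 genes had an unadjusted p under 0.05). The log2 differences of the 4 genes were -0.12 ± 0.17 for Dppa2, -0.06 ± 0.16 for Dppa4, 0.21 ± 0.24 for Dppa5a and -0.31 ± 0.20 for Dppa3, each with a limma adjusted p of 1. All KO ES cell libraries lay above both WT libraries for Dppa5a, as for 12.7% of the genes tested; the other 3 genes overlapped. In N2B27, where 13 genes (0.101%) passed, the differences were -0.03 ± 0.17 for Dppa2 (limma, adjusted p = 0.988), 0.26 ± 0.16 for Dppa4 (0.712) and -0.53 ± 0.24 for Dppa5a (0.548). None of the 4 genes passed in ES cells and none of these 3 in N2B27, where the ranges of the genotypes overlapped for each of them; Dppa3 has no genotype test there. Leaving out 1 library moved the Dppa5a value in N2B27 between -1.0 and -0.06.

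Whether the change from ES cells to EBs itself differed between genotypes was tested as an interaction, which 20 genes (0.155%) passed. Dppa2 had an interaction of 0.81 ± 0.24 (limma, adjusted p = 0.282), Dppa3 of -0.65 ± 0.29 (0.613), Dppa4 of 0.47 ± 0.23 (0.667) and Dppa5a of 0.32 ± 0.34 (0.943), and none passed. For N2B27, where 1 gene (0.00773%) passed, the interactions were 0.09 for Dppa2, 0.32 for Dppa4 and -0.74 for Dppa5a, each with a limma adjusted p of 1; that of Dppa5a lay between -1.21 and -0.27 on leaving out 1 library. The EB genotype difference is therefore not shown to differ from that in ES cells for any of them. With each line reduced to its mean over the 3 cultures (3 KO against 2 WT, 7 genes or 0.0541% past the threshold), the differences were 0.18 ± 0.09 for Dppa2 (limma, adjusted p = 0.471), -0.43 ± 0.12 for Dppa3 (0.218), 0.20 ± 0.09 for Dppa4 (0.417) and 0.07 ± 0.10 for Dppa5a (0.845).

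Genes known to be activated through DPPA2 and DPPA4 were followed as a list of 2-cell-like genes, of which 16 could be tested. In KO against WT EBs 5 rose and 0 fell, where over all genes tested 0.650% rose and 1.62% fell. The list median was 0.91 on the log2 scale against -0.04 over all genes. Zscan4d, a telomere-related gene of the 2-cell-like state, averaged 10.2 ± 2.1 FPKM in KO and 2.62 ± 0.389 FPKM in WT EBs (log2 difference 1.62 ± 0.27, limma adjusted p = 0.00745). Its copies Zscan4b (1.66 ± 0.39, limma adjusted p = 0.0414) and Zscan4c (1.61 ± 0.37, 0.0361) share sequence with it, so that reads may be split among them and the values of each copy are uncertain. The other 2 were the deubiquitinase family members Usp17lc and Usp17le. Over 12 alternative settings their log2 differences ranged from 0.57 to 1.61 for Usp17lc and from 0.83 to 1.88 for Usp17le. The 5 calls of the list thus came from 2 gene families. The count was 1 without KO library 3, 3 without WT library 1, 0 without WT library 2 and 10 without KO library 2.

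In ES cells the same list had 0 calls, where 0 of all 12929 genes passed. Its median there was 0.48 against 0.00 over all genes, with 15 of 16 genes above 0. In N2B27 it had 0 calls, where 0.101% of all genes passed. Its median there was -0.10 against -0.02 over all genes, with 4 of 16 genes above 0. The list had 0 of 16 genes past the interaction test of the EB change, which 0.155% of all genes passed. Its summed level was 81.2 to 152 FPKM in KO and 29.5 to 40.9 FPKM in WT EBs, against 83.9 to 133 FPKM in KO and 25.4 to 88.3 FPKM in WT ES cells. In N2B27 it was 2.49 to 3.19 FPKM in KO and 3.36 to 8.94 FPKM in WT. Of its 16 genes 15 fell in KO N2B27 against KO ES cells and 10 in WT, where 33.2% of all genes fell in KO and 29.2% in WT. Other lists fell there too, with 15 of 15 naive pluripotency factors in KO and 15 in WT, and any relation to the level of Dppa2 or Dppa4 was not tested.

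Germline genes silenced by promoter DNA methylation formed a second list, with 18 genes tested. In KO against WT EBs 4 rose and 0 fell, where over all genes tested 0.650% rose and 1.62% fell. The list median was 0.35 against -0.04 over all genes. Mael, a piRNA pathway gene, averaged 14.2 ± 2.3 FPKM in KO and 6.13 ± 0.403 FPKM in WT EBs (1.08 ± 0.16, limma adjusted p = 0.00413). Syce1, a synaptonemal complex gene, averaged 7.02 ± 1.04 FPKM in KO and 3.62 ± 0.0495 FPKM in WT EBs (0.79 ± 0.10, limma adjusted p = 0.00111). Ddx4, a germ cell RNA helicase (0.82 ± 0.16, limma adjusted p = 0.0136), and Slc25a31, a testis ADP/ATP carrier (0.57 ± 0.13, 0.0337), were the other 2. Syce1 also passed the interaction test of the EB change (0.89 ± 0.14, limma adjusted p = 0.0211). Without KO library 3, WT library 1 or WT library 2 the count was 2 in each case.

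Of 21 tested genes of the DNA methylation machinery, which includes the DPPA3 partner Uhrf1, 0 were called between the genotypes in EBs. Over all genes tested 2.27% were called, so 0 of 21 does not show that the machinery was unchanged. The list median was 0.06 against -0.04 over all genes. Uhrf1 averaged 73.9 ± 4.16 FPKM in KO and 80.7 ± 3.76 FPKM in WT EBs (-0.13 ± 0.09, limma adjusted p = 0.583), and the maintenance methyltransferase gene Dnmt1 averaged 43.6 ± 2.26 FPKM in KO and 50 ± 1.32 FPKM in WT EBs (-0.19 ± 0.09, 0.339). Both fell in EBs against ES cells, Uhrf1 by 0.75 in KO and by 0.63 in WT on the log2 scale, and Dnmt1 by 0.69 in KO and by 0.43 in WT. Over that step the de novo methyltransferase gene Dnmt3b rose (2.64 ± 0.16 in KO, 2.00 ± 0.20 in WT) while the demethylation genes Tet1 (-1.77 ± 0.10 in KO, -2.05 ± 0.13 in WT) and Tet2 (-2.48 ± 0.16 in KO, -2.43 ± 0.20 in WT) fell. Of the 21 genes 5 rose and 8 fell in KO, and 6 rose and 9 fell in WT, where over all genes 36.2% rose and 28.5% fell in KO and 35.8% rose and 23.6% fell in WT.

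Markers of primordial germ cells, the cell type Dppa3 is best known from, were mixed. In EBs against ES cells 8 of 18 rose and 6 fell in KO, and 8 rose and 8 fell in WT, beside the shares over all genes just given. Prdm14 fell to 3.12 FPKM in KO EBs, against 12.6 FPKM in KO ES cells, and to 2.93 FPKM in WT EBs, against 11.6 FPKM in WT ES cells. Prdm1 rose to 1.82 FPKM in KO EBs, against 1.07 FPKM in KO ES cells, and to 2.37 FPKM in WT EBs, against 0.855 FPKM in WT ES cells. Tfap2c did not pass in either genotype (0.04 ± 0.19 in KO, 0.54 ± 0.23 in WT). Between KO and WT EBs 1 of the 18 rose, Ddx4, and 0 fell, where over all genes tested 0.650% rose and 1.62% fell. The summed level of the 19 listed genes was 353 to 369 FPKM in KO and 409.7 to 457 FPKM in WT EBs. This sum lay lower in KO EBs. Among the 18 tested genes 8 had a log2 difference above 0 and 10 below, with a median of -0.07 against -0.04 over all genes. Ifitm1 (114 FPKM in KO and 164 FPKM in WT EBs) and Ifitm3 (99.8 FPKM in KO and 122 FPKM in WT EBs) held much of the gap in the sum, and neither passed. The part of such cells in the Dppa3 result was not tested.

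Mesoderm and endoderm markers also lay lower in KO EBs. All 12 had a log2 difference below 0, with a median of -1.19 against -0.04 over all genes. Of the 12 genes 4 fell, where over all genes tested 1.62% fell and 0.650% rose. The mesoderm genes Hand1 (-2.31 ± 0.15, limma adjusted p = 3.1e-06), Mesp1 (-1.61 ± 0.37, 0.0378) and Kdr (-1.34 ± 0.17, 0.00111) and the endoderm regulator Gata4 (-1.54 ± 0.28, 0.0114) were the 4. The count was 9 without KO library 1 and 2 without KO library 3 or WT library 1. Summed over the 12 genes, levels came to 255 to 389 FPKM in KO and 414 to 505 FPKM in WT EBs. The keratin genes Krt8 (109.8 FPKM in KO and 149 FPKM in WT EBs) and Krt18 (131 FPKM in KO and 148 FPKM in WT EBs) held most of these sums, and neither passed. The part of mesoderm and endoderm cells in the differences of the Dppa genes was not tested. Among 19 ES-cell-associated genes 2 rose, Utf1 (0.77 ± 0.13, limma adjusted p = 0.00839) and Phc1 (0.47 ± 0.10, 0.0322), and 0 fell, with a median of 0.21. Of 15 naive pluripotency factors 0 rose and 1 fell, Tbx3 (-0.77 ± 0.15, limma adjusted p = 0.0177), with a median of 0.07. Among 15 formative and primed factors, 12 neural markers and 4 KH-domain and oocyte complex genes, 0 passed, with medians of 0.14, 0.01 and 0.20.

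**Figure D4:**
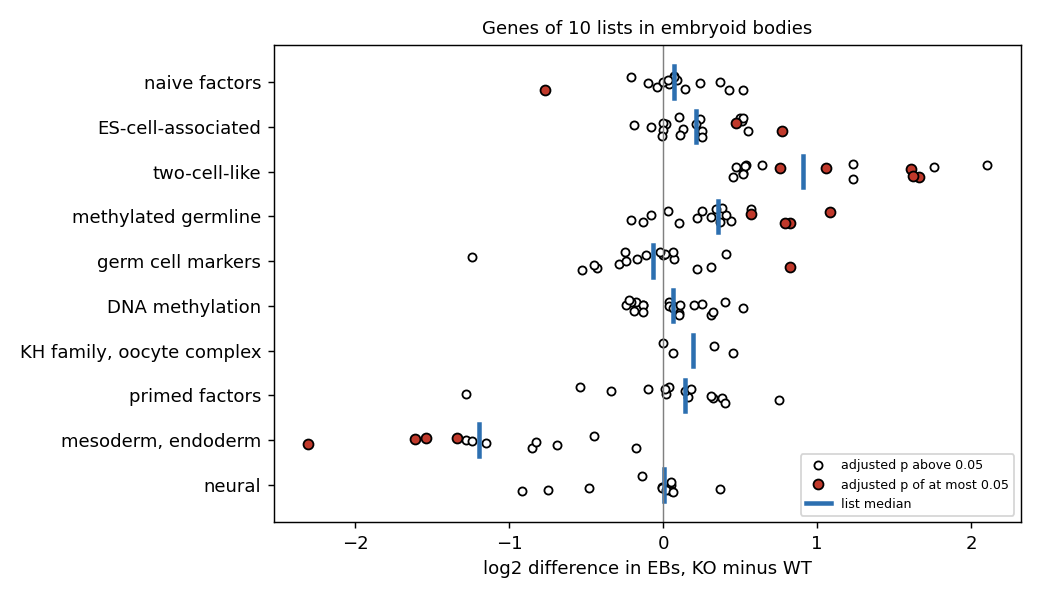
Log2 difference, KO minus WT, in EBs for each tested gene of 10 lists (x axis); red points have a limma adjusted p of at most 0.05, open points do not, and the blue bar is the list median. The 2-cell-like and methylated germline lists have their called genes to the right of 0, and the mesoderm and endoderm list has all its genes to the left.

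Dppa3 lies between Gdf3, a TGF-beta family ligand gene 16.3 kb before it, and Nanog, a core pluripotency factor gene 77.2 kb after it. Gdf3 averaged 23 FPKM in KO and 19 FPKM in WT EBs, against 68.9 FPKM in KO and 67.3 FPKM in WT ES cells, and Nanog averaged 179 FPKM in KO and 176 FPKM in WT EBs, against 382 FPKM in KO and 379 FPKM in WT ES cells. Both fell in both genotypes, with log2 differences of -1.55 in KO and -1.77 in WT for Gdf3 and of -1.10 in each genotype for Nanog. The gene between them was thus the one of the 3 that was higher in EBs. Further out, Apobec1 did not pass, Foxj2 rose in both genotypes, and Slc2a3, a glucose transporter gene, rose in KO EBs (0.91 ± 0.29, limma adjusted p = 0.0127) and did not pass in WT (0.77 ± 0.35, 0.0747).

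On one side of Dppa5a, its relative Ooep (8.7 kb away), the RNA helicase gene Ddx43 (27.6 kb) and the DNA sensor gene Mb21d1 (62.3 kb) all fell in EBs in both genotypes. On the other side, Gsta2 (19.9 kb), Omt2a (52.3 kb) and Gm10639 (61.5 kb) had at most 0.3 FPKM in any library and were not tested. Ooep averaged 16.1 FPKM in KO and 12.6 FPKM in WT EBs, against 46.3 FPKM in KO and 48.4 FPKM in WT ES cells. Ddx43 rose in KO against WT EBs (0.58 ± 0.11, limma adjusted p = 0.0166), with means of 2.86 ± 0.421 FPKM in KO and 1.57 ± 0.12 FPKM in WT. Beyond Dppa2, Morc1, a germline transposon-silencing gene 111.7 kb away, fell in EBs by 0.45 in KO and by 0.65 in WT on the log2 scale, while Pvrl3, the nearest measured gene on the other side of Dppa4 at 1785.2 kb, rose by 1.01 ± 0.12 in KO and 0.98 ± 0.15 in WT.

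**Figure D5:**
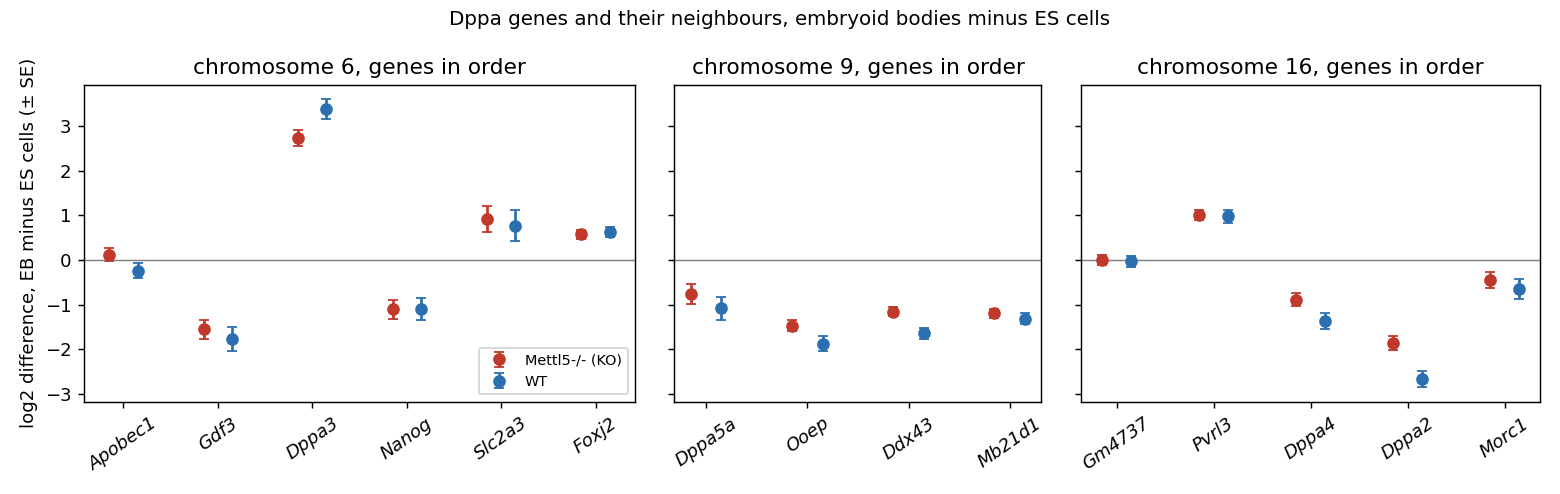
Log2 difference, EBs minus ES cells, on the y axis for the Dppa genes and their tested neighbours in chromosomal order (spacing not to scale), with KO (red) left of WT (blue) and bars of ± SE from limma. Dppa3 is above 0 between Gdf3 and Nanog, which are below 0; the Dppa5a neighbours drawn are below 0.

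The genes whose profiles over the 15 libraries came closest were found by the root mean square difference of centred log2(FPKM + 1) values. For Dppa2 they were Mylpf, a myosin light chain gene (0.24), Fgf4, a growth factor gene of ES cells (0.27), Triml2 (0.29), Nr0b1 (0.33) and Triml1 (0.34), against a median of 2.35 over all genes. For Dppa4 they were Fam169a (0.17), Ddx43 (0.18), Mpzl2 (0.19), Zfp819 (0.19) and Hsd17b11 (0.20), against a median of 1.12. Dppa2 and Dppa4 differed from each other by 1.27. For Dppa5a the nearest were Tdgf1, a Nodal co-receptor gene (0.47), Utf1 (0.86), Zfp42 (0.92) and, furthest of the 5, Klf2 (1.20), with Tdh between Zfp42 and Klf2, against a median of 3.33.

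For Dppa3 the nearest were Eomes (0.43), Car2 (0.59), Slc16a3 (0.63), Mixl1 (0.63) and Irf1 (0.65), against a median of 1.76. Eomes and Mixl1 are primitive streak regulators, Car2 is a carbonic anhydrase gene and Slc16a3 a lactate transporter gene. Eomes averaged 22.4 ± 11.4 FPKM in KO and 34.5 ± 8.35 FPKM in WT EBs, against 1.92 FPKM in KO and 2.4 FPKM in WT ES cells, and did not pass between the genotypes in EBs (-0.69 ± 0.31, limma adjusted p = 0.328). Mixl1 did not pass there either (-1.15 ± 0.39, limma adjusted p = 0.169). Values of Eomes and of Mixl1 in KO and WT EBs overlapped. Those of Dppa3 did not, with all KO below all WT libraries, as for 18.1% of the genes tested. Whether the genotype difference of Dppa3 differed from those of Eomes and Mixl1 was not tested.

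Near-identical copies limit how surely reads belong to 2 of the genes. The pseudogenes Dppa5b and Dppa5c each matched the Dppa5a transcript at 96.3% over 299 bases, and the pseudogene Dppa3-ps matched the Dppa3 transcript at 98.2% over 451 bases. Values for them are not analysed here, and reads from them could have been counted for Dppa5a or Dppa3. Dppa2 and Dppa4 transcripts aligned over 158 bases only, at 68.4%.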

How the data were processed

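Poly(A) RNA of 15 libraries was sequenced, 3 KO and 2 WT in each of 3 cultures. The submitters' processing notes name Bowtie2, RSEM and mm10; versions and strandedness are not given in the sources used here. The authors deposited FPKM per gene in 1 table; counts were not used here, and 0 sample columns were left out. Symbols turned into dates were restored for 27 genes. A filter that required 1 FPKM or more in 2 or more libraries left 12929 genes. Their log2(FPKM + 1) values were fitted with limma 3.58.1 in R 4.3.3 as 6 group means with a mean-variance trend (9 residual degrees of freedom), p-values were adjusted by Benjamini-Hochberg, and 0.05 was the threshold. Line means had a fit of their own (3 residual degrees of freedom). Fold changes on this scale understate changes of low genes. All 4 Dppa genes passed the filter, Dppa3 through EBs and 2 ES cell libraries.

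Depth came from fitting low FPKM values as whole fragments: 60.2% to 68.0% of them came within 0.1 of a whole number, against medians of 11.3% to 14.8% over the totals tried. This is too low a share for a count test, and the fragments given are estimates. Transcripts were aligned with blastn 2.17.0. Positions are from RefSeq annotation of GRCm38 and strands from GENCODE annotation. The fit was checked on simulated data. The Dppa genes, the 10 gene lists and the tests were chosen with earlier results of these data known. Named genes were the 3 largest calls in each direction per list, the 3 measured neighbours on each side, the 5 nearest profiles and a few fixed markers; Slc25a31, Usp17lc and Usp17le were named after their values were seen.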

Additional observations from a re-analysis of the deposited data

How the results depend on the processing

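Of 291 recalculated genotype values of the Dppa genes, 5 changed sign, 16 lost a call and 1 gained one; the other 269 kept direction and side of the threshold, and the cause was not tested. The values that changed sign were never called: Dppa2 in N2B27 (-0.08 to 0.03 on leaving out 1 library, with 0.03 and 0.02 as the positive ones), Dppa4 in N2B27 (-0.04 to 0.56), Dppa5a over line means (-0.09 to 0.23) and Dppa3 in ES cells (-0.67 to 0.05). In EBs, Dppa2 passed in 3 of 12 alternatives. It did not pass with a pseudocount of 0.1 (0.72, adjusted p = 0.0818), no filter (0.69, 0.0812), scaling to a fixed total (0.66, 0.0719), no trend (0.69, 0.0529) or EB libraries alone (0.69, 0.358), and leaving out 1 library gave 0.54 to 0.92. Dppa3 in EBs passed in 5 of 12; it did not with a pseudocount of 0.1 (-1.01, adjusted p = 0.242), the fixed total (-1.03, 0.0557) or EB libraries alone (-0.96, 0.159), and leaving out 1 library gave -1.20 to -0.71. The EB interaction of Dppa2 ranged from 0.67 to 1.05 on leaving out 1 library and passed without KO EB library 2 (1.05, adjusted p = 0.00341). Among list genes called in EBs, Hand1 and Kdr passed in 12 of 12 alternatives, and Mael, Syce1 and Zscan4d in 11. Utf1 and Gata4 passed in 10, Phc1 and Usp17lc in 9, and Ddx4 and Usp17le in 8. Tbx3 passed in 7, Mesp1 in 6, Slc25a31 and Zscan4c in 5, and Zscan4b in 4.

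Counts of called genes moved more. For KO against WT ES cells, no filter gave 1 gene and leaving out 1 library 0 to 4. For EBs a pseudocount of 0.1 gave 181, EB libraries alone 19 and leaving out 1 library 56 to 383. For N2B27 the counts were 7 (pseudocount 0.1), 52 (no filter), 8 (median-ratio scaling), 3 (fixed total), 0 (N2B27 libraries alone) and 0 to 249 (1 library left out). For the EB interaction they were 1 (pseudocount 0.1), 36 (no filter) and 1 to 69 (1 library left out). For the N2B27 interaction they were 0 (pseudocount 0.1, median-ratio scaling, no trend or only the groups compared), 4 (no filter), 2 (fixed total) and 0 to 32 (1 library left out). For line means they were 0 (no filter), 13 (fixed total), 12 (no trend) and 1 to 42 (1 line left out).

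With the line as a fixed block, the EB interaction count was 7 against 20 without it, and no Dppa gene passed in either fit. The KO against WT tests had the line as a random block in a separate fit. No call of a Dppa gene changed there (Dppa2 in EBs limma adjusted p = 0.0492, Dppa3 0.0281). A line has 1 library in each culture, and the differences stayed at 0.69 for Dppa2 and -0.96 for Dppa3, so this is a weak check. Deviations of same-named libraries correlated at -0.178 to 0.265 in KO, with 3 of 9 pairs over 0.1, and at -0.029 to 0.061 in WT, with 0 of 6. Differently named libraries correlated at -0.272 to 0.236 in KO, with 2 of 18 pairs over 0.1, and at -0.061 to 0.029 in WT. Deviations were taken from the group mean. With 2 WT libraries per culture they are mirror images, so the differently named WT values are the same-named ones with the sign reversed. The KO values are tied to each other too, as 3 deviations cancel. These correlations therefore cannot decide whether the names pair the libraries, and the names were not taken to pair them. Whether same-named libraries share an origin was not tested further.

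The median gene shifted between N2B27 and ES cells by 0.11 in KO and 0.12 in WT on the log2 scale, by 0.22 in both with the fixed total. Depth limits Dppa3 in N2B27 and ES cells, and Dppa2 in N2B27.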
